A study of Homo sapiens with 6 samples.

Results

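ANKRD1 and 9 genes of the YAP-TEAD pathway were followed in RPMI-8402, a T-cell acute lymphoblastic leukaemia (T-ALL) line. The 10 genes were taken by symbol from the 63677 genes of the count table: the target gene ANKRD1, the coactivators YAP1 and WWTR1, the DNA-binding factors TEAD1, TEAD2 and TEAD4, the angiomotin-like regulators AMOTL1 and AMOTL2, and the target genes CTGF and CYR61. Each symbol had a single Ensembl gene ID. ANKRD1 was singled out because it was among the few genes called between the groups of these same libraries, so its difference is described here and carries no test. The other 9 were added as its pathway partners with the results known, and their differences are likewise given with errors. Calls among the 10 genes are listed but not read as tests of them.

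The cells stably carried Cas9. The DOX group, labelled as MYCN knockout, was given doxycycline for 72 hours, which induces the guide RNAs that target MYC and MYCN, and the DMSO group, labelled as control, received the solvent. Each group held 3 libraries, named here by the numbers in the count columns: DOX 12, 24 and 36, and DMSO 11, 23 and 35. The treatment text names guides against MYC only, and whether the cells were a pool or a clone is not given in the sources used here. Effects of doxycycline itself cannot be told apart from those of the guides, since guide-free cells under the drug were not analysed here. Nothing states that the libraries came from separate cultures, so the spread between them may be technical.

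Libraries held 28602145 to 29204148 counts. MYCN, a guide target, had 46.2, 50.1 and 53.7 CPM (read counts divided by the TMM-scaled library size, in units of 1e6 counts) in DOX 12, 24 and 36, against 76.8, 109.5 and 86.9 CPM in DMSO 11, 23 and 35. The groups did not overlap (log2 fold change -0.87 ± 0.13), and MYCN was called by DESeq2 (adjusted p = 1.08e-05) and not by edgeR (adjusted p = 0.0726). MYC averaged 200 ± 6.57 CPM in DOX and 245 ± 39.7 CPM in DMSO (SD, n = 3 each), with overlapping groups. All 9 T-cell and T-ALL markers reached 1 CPM in at least 3 libraries, and their summed level was 1319 to 1343 CPM in DOX and 1363 to 1451 CPM in DMSO. Of these markers edgeR called 0 and DESeq2 called 2 as lower, PTCRA and LMO1, where it called 6.44% of its genes lower. In edgeR 2 of the 9 had an unadjusted p under 0.05, against 4150 of all 15949 genes tested (26%). Endothelial, myeloid and epithelial marker lists had 0 members at that level. DMSO 11 stood apart: over the 9311 genes averaging 10 CPM or more, its root mean square log2 distance was 0.18 to 0.21 to the DOX libraries and 0.41 to 0.43 to the other DMSO libraries. The main results are therefore also given without DMSO 11, in a fit where edgeR called 49.4% of all genes. DMSO 11 was singled out from these same data. Adjusted p-values of the fit without it depend on that choice, rest on DMSO 23 and 35 alone in the DMSO group, and are not read as separate tests. That fit called MYCN as lower (log2 fold change -0.98, adjusted p = 2.26e-07) and did not call MYC (-0.20, adjusted p = 0.0566). Of the 9 T-cell and T-ALL markers it called 2 higher and 3 lower.

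The Hippo pathway is a kinase cascade that restrains growth. Its kinases phosphorylate the coactivators YAP1 and TAZ (the product of WWTR1) and keep them out of the nucleus; when unphosphorylated, these coactivators bind TEAD factors on DNA and switch on genes such as CTGF, CYR61 and ANKRD1. The pathway is best known from adherent and contractile tissues. ANKRD1, also called cardiac ankyrin repeat protein, is found in heart and skeletal muscle, at the sarcomere and in the nucleus, where it modulates transcription. Blood cells commonly hold little YAP1.

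TEAD factors recognise the letters GGAATG, and the stretches before the ANKRD1 and CTGF starts are shown because both hold these letters more than once while the levels of the genes were far apart. The sequences are the 250 bases before the RefSeq start on build GRCh38.p14, both from the minus strand, at chr10:90921088-90921337 for ANKRD1 and chr6:131951373-131951622 for CTGF. Capitals mark GGAATG on either strand.
ANKRD1: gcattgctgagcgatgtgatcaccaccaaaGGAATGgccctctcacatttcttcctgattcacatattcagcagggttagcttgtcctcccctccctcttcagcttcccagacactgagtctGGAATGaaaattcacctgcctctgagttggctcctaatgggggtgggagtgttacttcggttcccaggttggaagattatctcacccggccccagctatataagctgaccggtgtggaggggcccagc
CTGF: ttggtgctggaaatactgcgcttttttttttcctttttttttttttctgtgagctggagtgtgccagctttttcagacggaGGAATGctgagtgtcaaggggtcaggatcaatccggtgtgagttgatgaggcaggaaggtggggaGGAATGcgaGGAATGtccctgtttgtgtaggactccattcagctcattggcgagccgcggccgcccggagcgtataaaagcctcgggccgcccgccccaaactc

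The ANKRD1 stretch held GGAATG 2 times, beginning at bases -220 and -128 from the start, and the CTGF stretch 3 times, beginning at -169, -104 and -95. Of 35116 RefSeq stretches of the same length, 11.9% held these letters at least once and 0.94% at least 2 times, on either strand. Promoter sequences were matched for 7 of the 10 genes. YAP1 held the letters 1 time, and AMOTL1, AMOTL2, WWTR1 and TEAD2 held none in this window. The ANKRD1 stretch also held the AP-1 letters TGANTCA (N any base, either strand, 6.6% of stretches) at -195, there as TGATTCA. At -32 it held a TATA box (TATAAA, or in its place the letters TATATA, on the gene's strand, 9.5%). The MYC E-box letters CACGTG, found in 6.3% of stretches on either strand, were absent from those of ANKRD1 and CTGF and present 1 time in that of YAP1. The CArG box bound by SRF, in 1.16% of stretches, was in none of the 7. None of these matches overlapped another in the ANKRD1 stretch, and a match is a run of letters, not a shown binding site.

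The 10 genes differed widely in level, and 4 of them reached 1 CPM in at least 3 libraries: ANKRD1, AMOTL1, TEAD4 and CYR61. AMOTL2, WWTR1 and YAP1 were at trace levels, and TEAD1, TEAD2 and CTGF were at or next to 0 counts. CYR61 was the lowest gene above this minimum, with a mean of 2.79 CPM over all libraries, and AMOTL2 and WWTR1 were nearest below it, at 0.747 and 0.599 CPM. To compare genes with each other, CPM were divided by exon length in kilobases (GENCODE 29). ANKRD1 then averaged 33.7 ± 1.23 in DOX and 74.9 ± 10.0 in DMSO (CPM per kilobase, SD, n = 3 each). That placed it at rank 1380 of 15462 tested genes in DOX and at rank 480 in DMSO. TEAD4 followed with 3.09 ± 0.374 CPM per kilobase in DOX and 3.25 ± 0.881 in DMSO, then AMOTL1 with 2.85 ± 0.147 and 2.20 ± 0.0415; over the 6 libraries the ranges of this pair overlapped. CYR61 was next at 1.01 ± 0.160 CPM per kilobase in DOX and 1.26 ± 0.0990 in DMSO, below every library of TEAD4 and AMOTL1. The level of ANKRD1 per kilobase was 10.9 times that of TEAD4 in DOX and 23.04 times in DMSO.

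**Figure D1:**
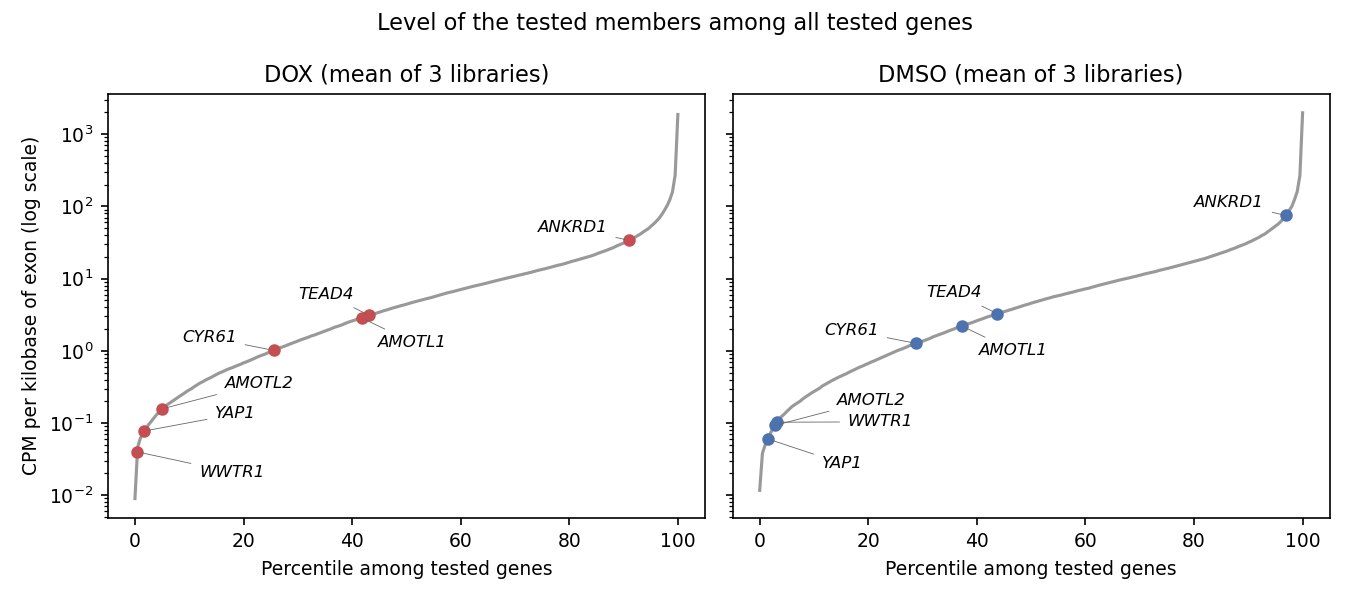
Level of the 7 tested genes (points) among all 15462 tested genes with a known length (grey line, by percentile), as mean CPM per kilobase of exon on a log axis, in DOX (left) and DMSO (right). ANKRD1 lies at percentile 91.1 in DOX and 96.9 in DMSO, TEAD4, AMOTL1 and CYR61 lie between percentiles 25.6 and 43.8, and AMOTL2, YAP1 and WWTR1 lie at or below 5.02.

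After the filter on low counts 7 of the 10 genes were tested, and TEAD1, TEAD2 and CTGF were not. The fit over 15949 genes with edgeR's quasi-likelihood test called 5 genes at an adjusted p of 0.05, which is 0.0313%, and ANKRD1 is 1 of those 5, the reason for its choice. Of these calls 2 were higher in DOX (0.0125%) and 3 lower (0.0188%), ANKRD1 among the lower. None of the other 6 tested genes was called. DESeq2 gave an adjusted p to 5 of the 7, all but YAP1 and WWTR1. It called ANKRD1 and AMOTL1, where it called 9.81% of its genes. With DMSO 11 left out, edgeR called AMOTL1 and AMOTL2 as higher and ANKRD1 and WWTR1 as lower. That fit called 49.4% of all genes. Of the 7 genes, 3 lay higher in every DOX library than in every DMSO library, against 14.6% of all genes tested, and 1 lay lower, against 15.6%, so the groups did not overlap for 4 of 7, against 30.2%. Nothing is read from these counts, since the genes were proposed from this comparison.

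**Figure D2:**
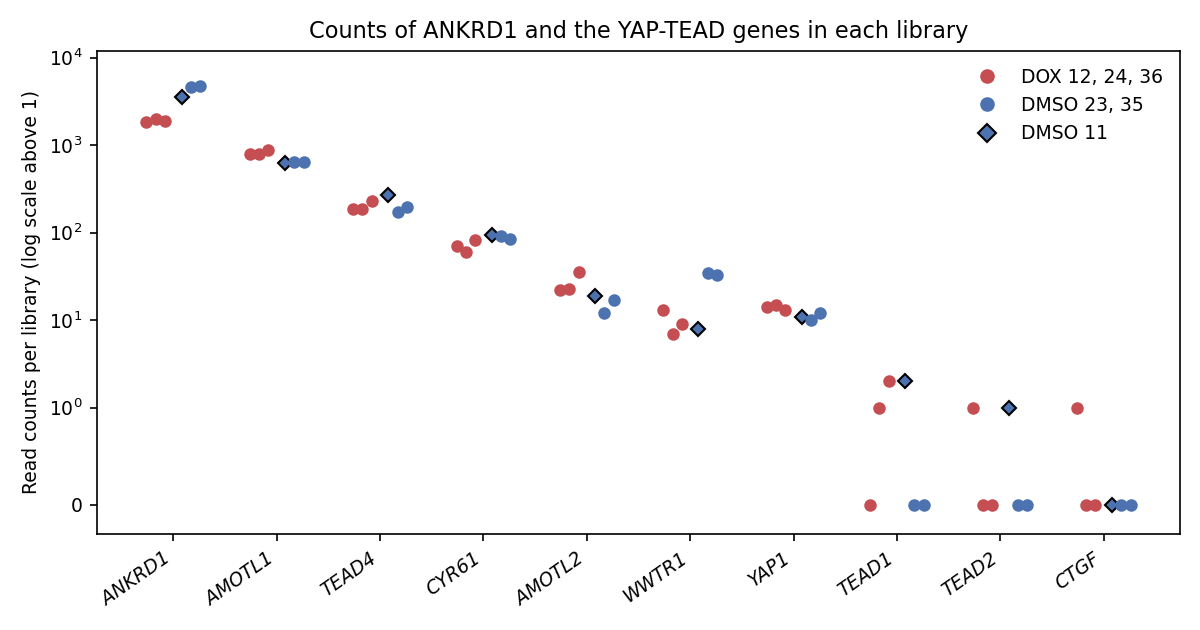
Read counts of the 10 genes in each library, DOX (red) left of DMSO (blue) for each gene, with DMSO 11 as a diamond; the axis is logarithmic above 1 count. ANKRD1 is separate between groups at 1861 to 1978 against 3512 to 4763 counts, WWTR1 sets DMSO 23 and 35 apart from the other 4 libraries, and TEAD1, TEAD2 and CTGF hold at most 2 counts in any library.

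The target genes come first. ANKRD1 (ENSG00000148677, chromosome 10) had 64.5, 69.3 and 66.2 CPM in DOX 12, 24 and 36, against 125.5, 158.3 and 161.0 CPM in DMSO 11, 23 and 35. Every DOX library lay below every DMSO library, and DMSO 11 lay between the DOX libraries and the other DMSO libraries. The log2 fold change was -1.15 ± 0.11 (SE), a level 0.450 times that of DMSO, and the authors' deposited table gives -1.16 ± 0.13, also as DOX over DMSO. Against DMSO 11 alone the DOX mean differed by -0.91 on the log2 scale, and against DMSO 23 and 35 together by -1.26. Leaving out each library in turn gave log2 fold changes of -1.26 to -1.09, with -1.26 ± 0.06 when DMSO 11 was the library left out. Of the 9311 tested genes that averaged 10 CPM or more, 18 had a log2 fold change at least as low, ANKRD1 included. In bulk RNA, fewer cells expressing ANKRD1 and less ANKRD1 RNA per cell cannot be told apart.

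CYR61, a secreted matricellular protein and a standard YAP target, had 2.46, 2.10 and 2.89 CPM in DOX 12, 24 and 36. In DMSO 11, 23 and 35 it had 3.36, 3.08 and 2.87 CPM. DOX 36 lay just above DMSO 35, so the groups overlapped. The log2 fold change was -0.32 ± 0.18, and -0.26 ± 0.18 without DMSO 11. CTGF, its relative and the other standard target, held 1 count in DOX 12 and 0 in every other library. Its 0 counts over the 3 DMSO libraries are given a floor of 0.03445 CPM (3 counts). The exact 95% Poisson upper limit is 0.0424 CPM, and no fold is given.

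Both coactivators were at trace levels. YAP1 had 14, 15 and 13 counts in DOX 12, 24 and 36 and 11, 10 and 12 in DMSO 11, 23 and 35, which is 0.487 ± 0.0366 CPM in DOX and 0.379 ± 0.0355 CPM in DMSO (SD, n = 3 each). The DOX counts all lay above the DMSO counts, by 1 count at the nearest pair. The log2 fold change was 0.36 ± 0.28. Pooled over all libraries, its 75 counts correspond to 0.433 CPM with an exact 95% Poisson interval of 0.341 to 0.543, which covers counting error only. WWTR1 had 13, 7 and 9 counts in DOX 12, 24 and 36, against 8, 35 and 33 in DMSO 11, 23 and 35. DMSO 11 lay among the DOX libraries, so the log2 fold change of -1.36 ± 0.52 came from DMSO 23 and DMSO 35. WWTR1 reached 10 counts in 3 libraries, DOX 12, DMSO 23 and DMSO 35. An antisense gene, WWTR1-AS1, shares exon sequence with it, as opposite-strand genes do with YAP1, AMOTL1, TEAD2 and CTGF, and whether the counting used strand is not given in the sources used here. Without DMSO 11 its log2 fold change was -1.76, and against DMSO 11 alone the DOX mean differed by 0.16 on the log2 CPM scale.

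Of the DNA-binding factors, TEAD4 carried nearly all TEAD counts. TEAD4 had 6.48, 6.59 and 8.0 CPM in DOX 12, 24 and 36, against 9.65, 5.83 and 6.69 CPM in DMSO 11, 23 and 35. The highest and the lowest value were both DMSO libraries, and the groups overlapped. The log2 fold change was -0.07 ± 0.20 over all libraries and 0.16 ± 0.13 without DMSO 11, so its sign rested on that library. TEAD1 held 0, 1 and 2 counts in DOX 12, 24 and 36 and 2, 0 and 0 in DMSO 11, 23 and 35, in all 5 counts or 0.0289 CPM (exact 95% Poisson interval 0.00937 to 0.0674). TEAD2 held 1 count in DOX 12 and 1 in DMSO 11 and none elsewhere. TEAD4 held 1245 counts over all libraries, against 5 for TEAD1 and 2 for TEAD2. TEAD3, the remaining TEAD factor and not among the 10 genes, had 0.232 ± 0.0725 CPM in DOX and 0.126 ± 0.0695 CPM in DMSO.

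The angiomotin-like proteins bind YAP and hold it at junctions and actin filaments. AMOTL1 had 27.8, 27.7 and 30.3 CPM in DOX 12, 24 and 36, against 22.6, 21.8 and 21.9 CPM in DMSO 11, 23 and 35. Every DOX library lay above every DMSO library, and here DMSO 11 lay with the other DMSO libraries. The log2 fold change was 0.37 ± 0.09, with 0.33 to 0.40 when each library was left out in turn, and the authors' deposited table gives 0.37 ± 0.11. AMOTL2, itself a target of YAP in other cells, had 22, 23 and 36 counts in DOX 12, 24 and 36, against 19, 12 and 17 in DMSO 11, 23 and 35. The groups did not overlap, with 3 counts between the nearest pair. Its log2 fold change was 0.76 ± 0.31, and 0.50 without DOX 36. ANKRD1, CYR61, WWTR1 and TEAD4 thus had log2 fold changes below 0, that of TEAD4 turning without DMSO 11, and AMOTL1, AMOTL2 and YAP1 above 0.

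**Figure D3:**
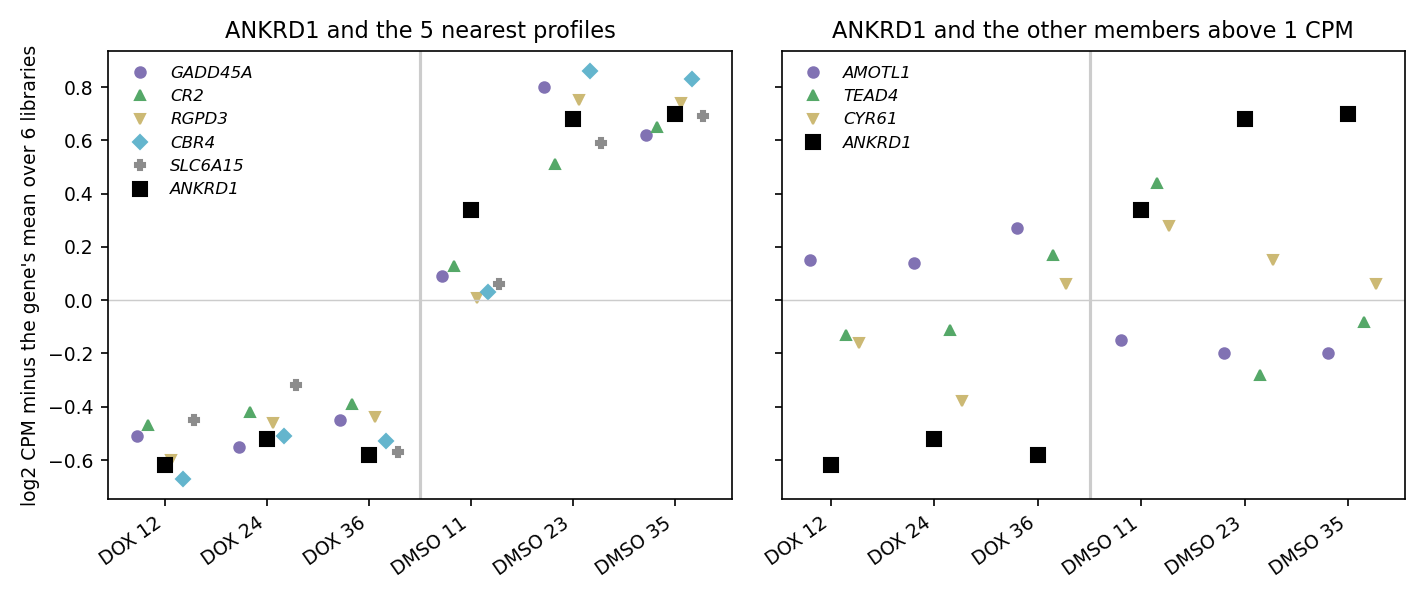
Library profiles, as log2 CPM minus the gene's mean over the 6 libraries, with DOX libraries left of the vertical line and DMSO libraries right of it. Left, ANKRD1 (black squares) and the 5 genes nearest to it, with every DOX point below every DMSO point; right, ANKRD1 with AMOTL1, TEAD4 and CYR61, where AMOTL1 lies from 0.14 to 0.27 in DOX and from -0.20 to -0.15 in DMSO.

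The genes whose profiles over the 6 libraries were most like that of ANKRD1 were sought among 9310 genes averaging 10 CPM or more, by the root mean square difference of centred log2 CPM. The nearest was GADD45A, a stress-induced growth arrest gene that also stands in published YAP/TAZ target lists, with a difference of 0.137. GADD45A averaged 11.9 ± 0.414 CPM in DOX and 24.5 ± 5.88 CPM in DMSO (SD, n = 3 each). CR2, the complement receptor CD21, followed with 0.151, averaging 144 ± 4.08 CPM in DOX and 264 ± 47.0 CPM in DMSO. RGPD3, of a gene family with near-identical copies whose reads can be shared, was at 0.153, the carbonyl reductase CBR4 at 0.157 and the amino acid transporter SLC6A15 at 0.159. In each of the 5 the DMSO 11 value lay nearer the gene's mean (0.01 to 0.13) than that of ANKRD1 (0.34). They were chosen by this likeness, so their group differences are no separate result. AMOTL1, the other of the 10 genes to average 10 CPM, was at 0.771, rank 8291.

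The protein-coding neighbours of ANKRD1 on chromosome 10 had log2 fold changes nearer 0 than ANKRD1. In GENCODE 29 order these are KIF20B, HTR7 and RPP30 on one side and PCGF5, HECTD2 and PPP1R3C on the other. RPP30, a subunit of the tRNA-processing RNase P, is the adjacent gene, with 73.2, 79.9 and 72.4 CPM in DOX 12, 24 and 36 and 82.6, 85.2 and 88.9 CPM in DMSO 11, 23 and 35. Its log2 fold change was -0.19 ± 0.08. On the other side the Polycomb gene PCGF5 was at -0.13 ± 0.12, with overlapping groups. The mitotic kinesin KIF20B was at 0.42 ± 0.13 and the ubiquitin ligase HECTD2 at 0.13 ± 0.14, while HTR7 and PPP1R3C were too low to test. EdgeR's quasi-likelihood test called 0 of the 4 tested neighbours, with adjusted p-values of 0.110 to 0.545 and 2 at an unadjusted p under 0.05 (26% of all genes). DESeq2 called KIF20B as higher (adjusted p = 0.0481), where it called 3.37% of its genes higher. Without DMSO 11, in the fit that called 49.4% of all genes, edgeR called KIF20B as higher (log2 fold change 0.50, adjusted p = 0.00173) and RPP30 (-0.21, adjusted p = 0.0128) and PCGF5 (-0.24, adjusted p = 0.0064) as lower.

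The Hippo kinase core was present. Of its 8 genes, 7 reached 1 CPM, with MOB1A and MOB1B, the adaptors that activate LATS kinases, at the highest CPM. MOB1A averaged 372 ± 8.11 CPM in DOX and 286 ± 42.9 CPM in DMSO (SD, n = 3 each; log2 fold change 0.38 ± 0.12), and MOB1B 144 ± 6.33 CPM in DOX and 137 ± 20.1 CPM in DMSO. STK4, the MST kinase best known from lymphocytes, was at 130 ± 2.21 CPM in DOX and 137 ± 14.7 CPM in DMSO, and the kinase LATS2 held 1 count in all libraries together. TEAD3, STK4 and LATS2 were chosen after their values were seen. Among 25 upstream regulators 22 reached 1 CPM, with the kinases MAP4K4 (507 ± 17.7 CPM in DOX, 510 ± 53.3 CPM in DMSO) and TAOK1 (151 ± 7.26 CPM in DOX, 134 ± 14.6 CPM in DMSO) highest. Of 5 TEAD cofactors and relatives, VGLL4, which competes with YAP for TEAD, averaged 26.2 ± 2.73 CPM in DOX and 21.8 ± 1.99 CPM in DMSO, and VGLL3 1.47 ± 0.194 CPM in DOX and 1.05 ± 0.222 CPM in DMSO. Of the 31 tested genes in these 3 lists edgeR called 0 (7 at an unadjusted p under 0.05, 5 of them higher, against 26% of all genes tested) and DESeq2 called 3, all higher, where it called 3.37% of its genes in that direction. These were MOB1A, the kinase TAOK2 (log2 fold change 0.36 ± 0.09) and RASSF2, a partner of MST kinases (1.20 ± 0.29). Their DESeq2 adjusted p-values were 0.0450, 0.0243 and 0.0255. RASSF2 was low, at 1.62 ± 0.288 CPM in DOX and 0.705 ± 0.247 CPM in DMSO, and reached 1 CPM only in the DOX libraries. The median log2 fold change of the 31 genes was 0.08, beside 0.00 for all genes tested. Without DMSO 11 edgeR called 13 higher and 10 lower, in a fit that called 49.4% of its 16412 genes, 23.7% higher and 25.7% lower.

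Other YAP/TAZ targets were mostly low. Of 18 genes of a published target signature, without the 10 genes but with LATS2 and PTPN14 of the Hippo lists, 6 reached 1 CPM in at least 3 libraries, 8 were tested and 2 held 0 counts throughout. The signature genes with the highest CPM were the guanine nucleotide exchange factor ARHGEF17, at 81.2 ± 5.39 CPM in DOX and 97.8 ± 5.82 CPM in DMSO, and the Arf regulator ASAP1, at 31.2 ± 1.63 CPM in DOX and 35.9 ± 7.78 CPM in DMSO. Of the 8 tested genes 4 had log2 fold changes above 0 and 4 below, with a median of -0.09. EdgeR called 0 of them, with 3 at an unadjusted p under 0.05, all lower, against 26% of all genes in either direction. DESeq2 called GADD45A as lower (log2 fold change -1.05 ± 0.17, DESeq2 adjusted p = 1.84e-05) and no other, where it called 6.44% of its genes lower. GADD45A is also a target of stress pathways. Without DMSO 11 edgeR called 2 higher and 4 lower of the 9 then tested, in the fit that called 49.4% of all genes.

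**Figure D4:**
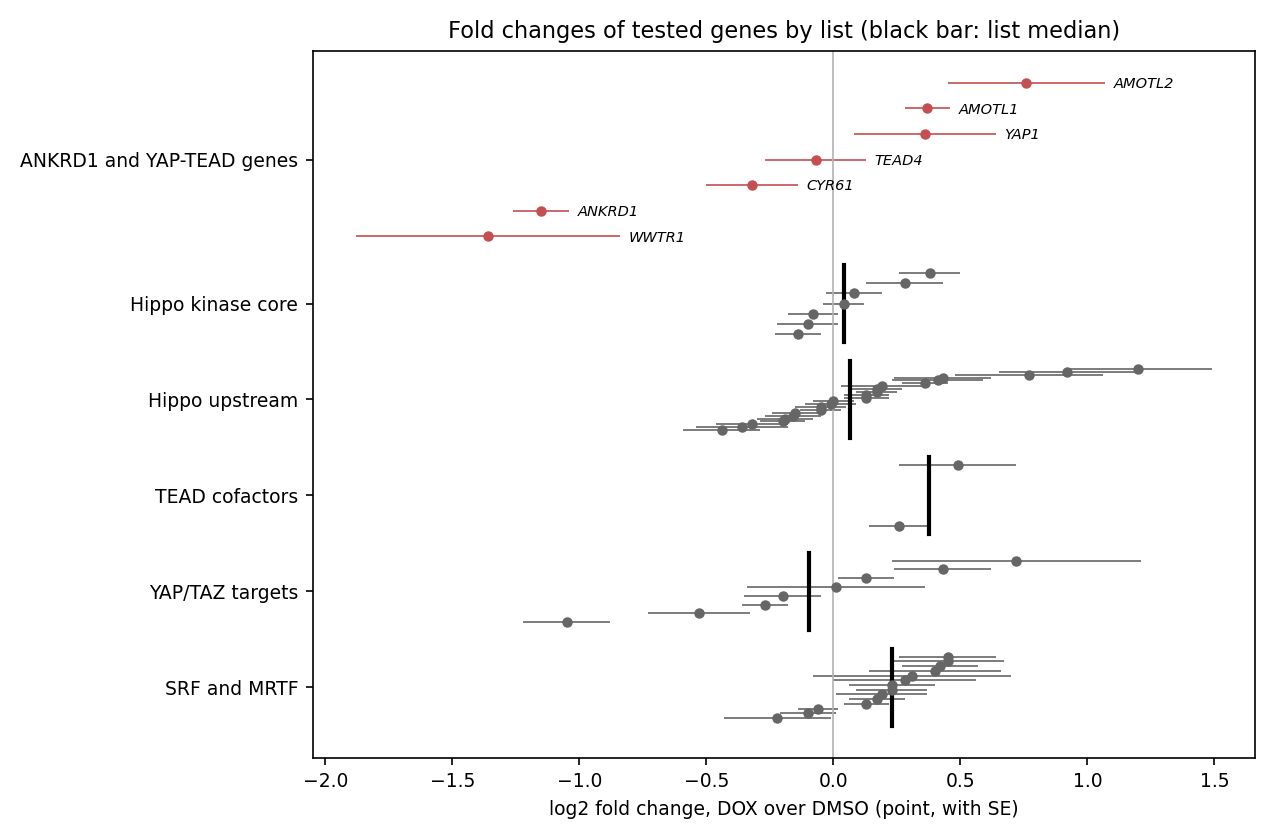
Log2 fold change of DOX over DMSO with its standard error for the tested genes of 6 lists (the YAP-TEAD set, Hippo kinase core, Hippo upstream, TEAD cofactors, YAP/TAZ targets, SRF and MRTF); the 7 tested genes of the YAP-TEAD set are in red with their names and the black bars are medians of the other 5 lists. WWTR1 (-1.36) and ANKRD1 (-1.15) lie farthest to the left in the red group, and the medians of these 5 lists lie between -0.09 and 0.38.

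SRF and its MRTF coactivators (MKL1, MKL2) are another route to ANKRD1 and CYR61 in contractile cells. Of 18 genes 14 were tested, and neither edgeR (2 of 14 at an unadjusted p under 0.05, both higher, against 26% of all genes) nor DESeq2 called any. The median log2 fold change was 0.23. The actins ACTB and ACTG1 led the list. ACTB had 3869, 4133 and 3952 CPM in DOX 12, 24 and 36, against 5145, 2324 and 2398 CPM in DMSO 11, 23 and 35, so DMSO 11 was above all DOX libraries and the other DMSO libraries below them. Without DMSO 11 edgeR called 8 of the genes higher and 0 lower, in a fit that called 23.7% of all genes higher. ANKRD1 was lower in DOX than in DMSO 11 and than in the other DMSO libraries. Of the tested genes of the list, SRF, CNN2 and FHL2 were also lower in both comparisons, SRF by little (-0.12 and -0.03 on the log2 scale). MKL2, TAGLN, VCL, FLNA, TPM1 and ZYX were higher in both, FLNA and TPM1 by only 0.02 on the log2 scale against DMSO 11. ACTB, ACTG1, MKL1, MYH9 and TPM4 differed in sign between the comparisons. The part of this route in the level of ANKRD1 was not tested.

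Muscle genes were mostly at 0 or at trace levels. Of 18 muscle genes, among them the heart muscle myosins and troponins, 8 held 0 counts in every library and 1 reached 1 CPM, TTN, with 24.3 ± 2.44 CPM in DOX and 19.6 ± 2.84 CPM in DMSO. TTN encodes the giant sarcomere protein titin, and per kilobase of its long transcript its mean level was 0.185 CPM. The relative ANKRD23 averaged 0.812 ± 0.118 CPM in DOX and 0.765 ± 0.245 CPM in DMSO. EdgeR and DESeq2 called 0 of the 2 tested muscle genes, with TTN at an unadjusted p under 0.05 in edgeR (26% of all genes). YBX1, a nuclear partner of ANKRD1, averaged 1254 ± 60.1 CPM in DOX and 1035 ± 423 CPM in DMSO, and neither edgeR nor DESeq2 called it. DMSO 11 was at 1524 CPM, against 787 and 795 CPM in DMSO 23 and 35. With DMSO 11 left out, edgeR called YBX1 as higher (log2 fold change 0.66, adjusted p = 6.56e-07), in a fit that called 49.4% of all genes.

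Markers of adherent cells, in which YAP1, WWTR1 and CYR61 are usually abundant, were at or near 0 apart from the collagen COL1A1. Myeloid markers were near 0 too. The 5 epithelial markers summed to 1.70, 0.490 and 1.15 CPM in DOX 12, 24 and 36 and to 0.00, 2.24 and 0.203 CPM in DMSO 11, 23 and 35. In DMSO 11, where all 5 were at 0, CYR61 had its highest value, YAP1 held 11 counts and WWTR1 held 8. In DMSO 23 and 35 YAP1 held 10 and 12 counts and WWTR1 held 35 and 33. The YAP/TAZ signature genes IGFBP3 and MYOF, chosen after their values were seen, held 0 counts in DMSO 11. They held 20 and 9 counts in DMSO 23, and 3 and 2 in DMSO 35. In DOX 12, 24 and 36 IGFBP3 held 14, 1 and 3 counts and MYOF held 5, 3 and 5. F3 of the same signature went the other way, with 31 counts in DMSO 11 against 18 and 5 in DMSO 23 and 35. Of 6 fibroblast markers 1 reached 1 CPM, the collagen COL1A1. It averaged 9.41 ± 0.269 CPM in DOX and 4.11 ± 2.61 CPM in DMSO (log2 fold change 1.20 ± 0.36). DESeq2 called COL1A1 as higher (adjusted p = 0.0148), where it called 3.37% of its genes higher, and edgeR did not call it (adjusted p = 0.107). With DMSO 11 left out, edgeR called COL1A1 as higher (log2 fold change 1.85, adjusted p = 2.31e-09), in the fit that called 49.4% of all genes. COL3A1 and LUM held 0 counts in every library. The summed endothelial markers ran from 0.520 to 0.8 CPM in DOX and from 0.5001 to 0.778 CPM in DMSO, and the myeloid markers from 0.658 to 1.11 CPM in DOX and from 0.541 to 0.847 CPM in DMSO. EdgeR called 0 of the 3 tested genes of the epithelial, endothelial and myeloid lists, with 0 at an unadjusted p under 0.05, and DESeq2 gave no adjusted p for them. The part of these cells in the trace genes was not tested.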

How the data were processed

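Strand-specific paired-end libraries of total RNA were made, per the labels' protocols. The authors deposited raw counts per Ensembl gene and their own comparison, with columns, per the file headers, for p-values, the test score, the mean normalised signal, and the log2 fold change and its error. The reads were handled with STAR 2.5.2a, featureCounts and DESeq2 1.12.4 on hg19, per the submitters' processing notes; the annotation release and the strand setting are not given in the sources used here. In GENCODE 29, exons of YAP1, WWTR1, TEAD2, AMOTL1 and CTGF overlap genes of the opposite strand and AMOTL2 overlaps the pseudogene RPL39P5, so their reads may not be told apart with certainty.

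Count columns show the group but carry numbers that are in no label, so each was assigned to a group only. The 92 spike-in rows and 37 mitochondrial rows held 0 counts. All pairs of libraries differed beyond sampling noise (mean chi-square per gene at least 4.56). Genes were filtered with filterByExpr, scaled by TMM and fitted in edgeR 4.0.16 by its robust quasi-likelihood test, with Benjamini-Hochberg adjustment over all tested genes; DESeq2 1.42.0 was an alternative, and the model was tested on simulated data. The SE is the log2 fold change divided by the square root of F. Log2 CPM used a prior count of 2. Precision is set by 3 libraries a group.

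The 10 genes and all lists were chosen with earlier results of these data known. Named from each list were genes called by edgeR or DESeq2 (up to 4) and the 2 with the highest mean CPM, and in addition 3 neighbours on each side of ANKRD1 and the 5 most similar profiles. All 140 list entries were found. Some list genes are not reported here. Lengths came from GENCODE 29 for 15462 of 15949 tested genes and promoters from RefSeq (GRCh38.p14). Alternatives were DESeq2, other scalings and filters, each library left out, and a block of adjacent column numbers.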

Additional observations from a re-analysis of the deposited data

How the results depend on the processing

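ANKRD1 kept its direction under all 12 alternatives, with log2 fold changes of -1.26 to -1.09 when each library was left out and -1.17 to -1.14 under the others. Of the 10 genes, 4 reached 1 CPM under total count scaling and whichever library was left out, 5 reached 0.5 CPM, and 7 reached 10 counts in 3 libraries. The number of genes called over the whole table was 5, against 1383 with DESeq2 and 1761 in edgeR with no filter on low counts, and it ran from 0 to 8109 when each library was left out. The 8109 calls came without DMSO 11; without any of the other 5 libraries edgeR called 0, where 2273 to 2629 genes had an unadjusted p under 0.05. The cause was not tested. In place of 0 calls, the YAP/TAZ target list had 1 with DESeq2, 2 with no filter and 0 to 6 with each library left out, the Hippo lists had 3, 5 and 0 to 23, and the SRF list had 0 to 8 with each library left out. The median of the YAP/TAZ target list changed sign without DMSO 35, to 0.03, and was -0.23 without DMSO 23 and with a minimum of 1 CPM. Median values of the SRF list ran from 0.12 to 0.35 and those of the Hippo lists from 0.02 to 0.11 when each library was left out. A replicate block by the labels' numbers was not run, since the count columns carry other numbers. These are adjacent between groups (11 and 12, 23 and 24, 35 and 36), and whether that marks pairs is not given in the sources used here. The deviations of adjacent libraries from their group means correlated at 0.05 to 0.07 over 9311 genes, and no DOX library correlated best with its adjacent DMSO library. A paired fit with these numbers as a replicate block, chosen after seeing the data, called 3 genes, gave -1.14 for ANKRD1 and left the 3 lists at 0 calls. TEAD1, TEAD2 and CTGF held too few counts in both groups for a fold change to be estimated at this depth.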
